A study of Drosophila melanogaster with 2 samples.

Results

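Distal intergenic summits are the binding sites of CG1663 that lie far from any known gene start. A site was counted here when the summit of its peak, the point of highest enrichment, lay inside no annotated gene and more than 5000 bp from every annotated transcript start. The authors' list was thresholded by the irreproducible discovery rate (IDR), which scores the agreement of peak ranks between replicates. A peak in it need not repeat, as 94.8% of its peaks overlapped a peak of both replicate lists. In the IDR-thresholded list 794 summits met the distance rule and 8863 did not, so that 8.22% were distal (95% exact interval 7.68 to 8.79). The 8863 were 2652 intergenic summits nearer to a start, 1781 in genes but more than 5000 bp from every start, and 4430 in genes and near a start. The rule used position relative to genes and starts, and did not use signal, replicate ranks or sequence. It does bear on flanking genes and their orientation, gap length, distance to a start and the spacing of distal summits.

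The data are peaks from chromatin immunoprecipitation and sequencing (ChIP-seq) with an antibody to GFP in Drosophila melanogaster. All chromatin was from whole pupae of both sexes, labelled 24 hours, of 1 transgenic line that stably expresses CG1663 with GFP fused to its C terminus. The labels give 1 group of 2 biological replicates, with the numbers 1 and 3, both called against the same control file, and no second genotype, stage or treatment and no untagged line was analysed here. A site bound in few cells of the animal and a weakly bound site cannot be told apart in such bulk chromatin. The depth is unknown because the files hold peaks and no read totals. Intervals cover counting error only and take the counted summits or gaps as independent. Positions are on build dm6 (Release 6) and are counted from 1.

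The labels treat CG1663 as a transcription factor. In Drosophila, intergenic DNA far from promoters holds enhancers, stretches where transcription factors gather and from which they act on a gene start that can lie beyond the nearest gene. Genes that control development often stand in long intergenic stretches with many enhancers, and several enhancers of a gene can act in different tissues. The chromatin of enhancers is open where factors bind, and peaks of unrelated factors often fall together there, so a peak by itself does not show that a site acts as an enhancer.

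The sequences around the strongest distal summits had a low GC content and, in most of them, a run of A and T somewhere within 50 bp of the summit. Below are windows of 50 bp to each side of 7 of the 9 strongest distal summits and, last, of the strongest of the 3 distal summits that share the highest GC content, each read on the plus strand of dm6 from the RefSeq assembly. Capitals mark runs of 10 or more bases that are A or T.
CG18404 to lncRNA:CR46113, chr3R:30261966-30262066: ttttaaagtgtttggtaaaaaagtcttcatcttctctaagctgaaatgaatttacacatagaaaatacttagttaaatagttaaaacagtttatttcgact
CG18404 to lncRNA:CR46113, chr3R:30265579-30265679: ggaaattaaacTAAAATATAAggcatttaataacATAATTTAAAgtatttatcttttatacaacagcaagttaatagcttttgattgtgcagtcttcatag
Qsox2 to Eip93F, chr3R:21941484-21941584: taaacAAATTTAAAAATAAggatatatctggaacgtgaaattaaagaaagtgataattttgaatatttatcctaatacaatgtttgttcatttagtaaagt
Qsox2 to Eip93F, chr3R:21937286-21937386: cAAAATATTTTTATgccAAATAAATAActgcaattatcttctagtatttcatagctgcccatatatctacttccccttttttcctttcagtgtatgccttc
NijA to CG43245, chr3L:10757753-10757853: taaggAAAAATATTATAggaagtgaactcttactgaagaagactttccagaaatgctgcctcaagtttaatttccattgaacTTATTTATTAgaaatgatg
Wnt6 to Wnt10, chr2L:7358160-7358260: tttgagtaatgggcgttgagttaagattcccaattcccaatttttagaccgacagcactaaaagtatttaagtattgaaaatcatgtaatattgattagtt
NijA to CG43245, chr3L:10757095-10757195: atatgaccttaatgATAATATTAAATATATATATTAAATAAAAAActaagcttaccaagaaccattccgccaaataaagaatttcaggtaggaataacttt
lncRNA:CR44711 to GCS2alpha, chrX:21592176-21592276: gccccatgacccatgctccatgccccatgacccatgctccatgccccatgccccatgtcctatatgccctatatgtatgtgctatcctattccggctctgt
The first 7 windows held 20.8% to 31.7% GC and the last held 55.4%, the highest value of a distal window. Of these 7, the second NijA to CG43245 window had the longest run, of 31 bases, and the windows at chr3R:30261966-30262066 and between Wnt6 and Wnt10 had none of 10 bases or more. No capitalised run covered the summit base, the middle base of the window, in these 7, and among all distal summits 114 had a run over it (14.4%, 95% exact interval 11.99 to 17.0), against 12.1% of the other summits. The last window, on X, repeats a short word rich in C, and its peak had a signal of 731 and rank 2482 of the list.

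The strongest distal site lay on 2R (13034988 to 13035617) between Su(z)2, which encodes a Polycomb group protein, and CG13323, 11911 bp from the nearest start. Its signal, the authors' value for each peak relative to the control, was 8172, and it ranked 6 in the IDR-thresholded list, 6 in replicate 1 and 9 in replicate 3. The next distal peak ranked 84 in the list. It was 1 of a pair on 3R between CG18404 and lncRNA:CR46113, with signals of 4152 (30261658 to 30262325, ranks 104 in replicate 1 and 65 in replicate 3) and 3561 (30264865 to 30265904, ranks 151 and 118), whose windows are printed above. A further pair on 3R lay upstream of Eip93F, which encodes an ecdysone-induced transcription factor of metamorphosis. Its members, 7580 and 11778 bp from the Eip93F start, had signals of 3116 (21941245 to 21941923) and 3070 (21937003 to 21937550). The sixth strongest peak, with a signal of 3056, lay on 2R (12959030 to 12959696) between CG13321 and Psc, the Polycomb group paralogue of Su(z)2 and its neighbour on the chromosome.

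Of the other 6 of the 12 strongest, 3 lay together between NijA, which encodes a cell surface adhesion protein, and CG43245 on 3L, with signals of 2907, 2706 and 2644. A peak between the Wnt ligand genes Wnt6 and Wnt10 on 2L (7357990 to 7358453) had a signal of 2711, with ranks 295 in replicate 1 and 265 in replicate 3. A peak on 3L (11261324 to 11261852) beside scyl, which encodes an inhibitor of TOR signalling, had a signal of 2670. A peak on 2L (11323891 to 11324348) between lncRNA:CR44583 and lncRNA:CR44584 had a signal of 2633. All 12 ranked in the strongest 400 peaks of both replicates, and the highest rank number among them was 385.

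The number of distal summits differed widely between intergenic stretches. A gap was taken as a stretch of bases outside every annotated gene, and 1422 gaps held at least 1 base that met the distance rule. Of these, 334 held a distal summit, 23.5% (95% exact interval 21.3 to 25.8), and they contained 25.3% of the bases that met the rule. A single distal summit was found in 179 gaps, while 37 gaps with 5 or more held 289 of the 794 summits. Gaps with distal summits had a median length of 18982 bp, against 11636 bp for gaps without. A longer gap has more bases on which a distal summit can fall, and the counts were not set against an even placement.

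The gap between NijA and CG43245 (3L, 10696878 to 10771924) held the most, 24 summits. Their signals lay between 177 and 2907, and 8 of them passed 1000. Next was the gap between Aps and lncRNA:CR45248 on 3L (10899124 to 10959230), with 16 summits whose signals lay between 196 and 1463. The gap between CG43402 and CG31928 on 2L (1443833 to 1492294) held 13, with signals from 187 to 1124. The gap between Qsox2 and Eip93F on 3R (21915547 to 21949113) held 12, with signals from 179 to 3116. The gap between CG15258 and lncRNA:CR44859 on 2L (15361628 to 15396333) and that between vvl, which encodes a POU domain transcription factor, and lncRNA:CR45115 on 3L (6794942 to 6865448) held 10 each, with highest signals of 1885 and 1423.

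**Figure D1:**
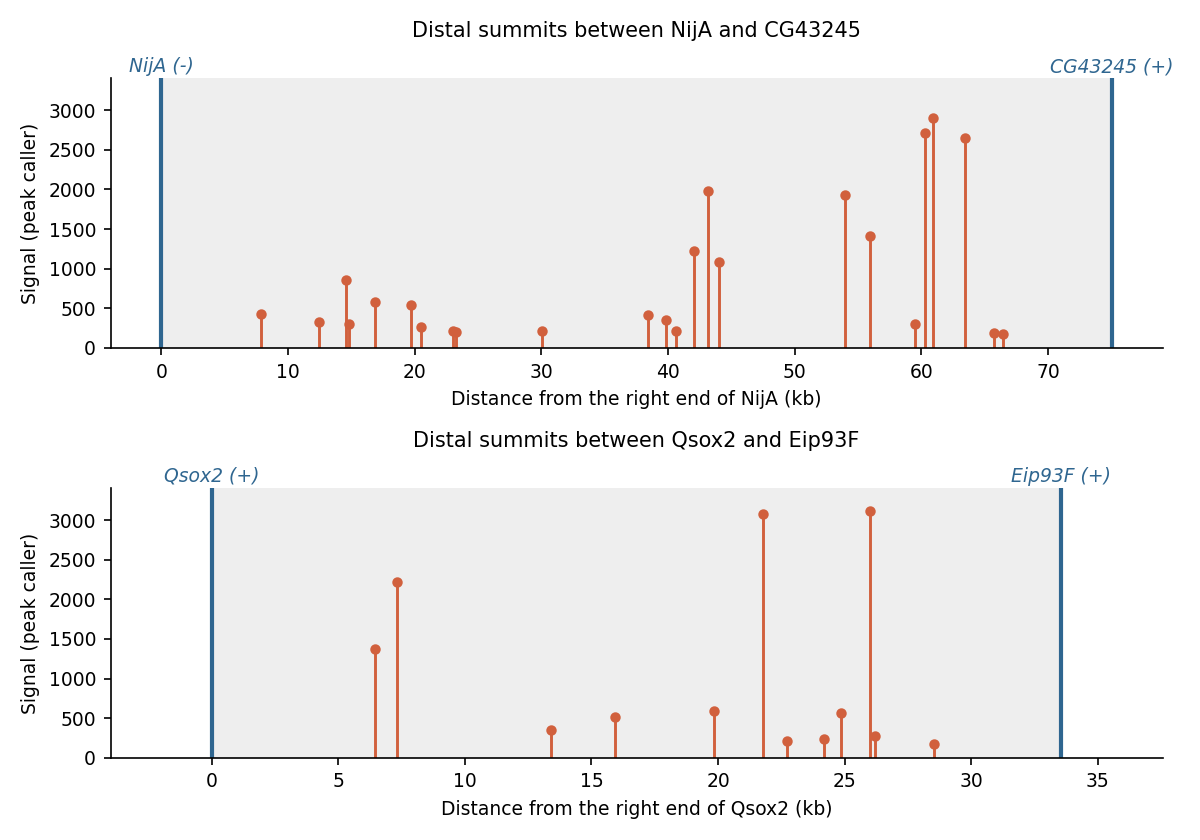
Distal summits along the gap between NijA and CG43245 (top, 24 summits) and along the gap between Qsox2 and Eip93F (bottom, 12 summits). The horizontal axis is the distance in kb from the right end of the left gene, the vertical axis the deposited signal, each stem is 1 summit, the shaded area is the gap and the vertical lines are the flanking genes with their strand; the 3 highest stems of the top map stand within 4 kb of each other, and those of the bottom map reach 3116.

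Many distal summits stood in clusters. They were no more crowded than other summits by neighbours of any kind within 5000 bp (73.7% against 75.4%). With distal summits chained at steps of at most 5000 bp, 531 of 794 (66.9%, 95% exact interval 63.5 to 70.1) belonged to a cluster of 2 or more. The interval takes summits as independent, which members of a cluster are not. The 427 clusters included 263 single summits, 72 pairs, 44 groups of 3 and 48 groups of 4 or more. The largest cluster, with 10 summits over 15117 bp (3R, 21928954 to 21944071), ended 5043 bp upstream of the Eip93F start. Its signals in chromosome order were 350.1, 520.3, 586, 3070, 212, 239, 565, 3116, 274 and 179, so a pair of strong summits stood among 8 weaker ones. The steps between them ran from 216 to 3898 bp with a median of 1480 bp. The 2 closest, at 21941534 and 21941750, lay in 1 peak region and shared their replicate 1 peak, so the second of them was not a separate site in replicate 1.

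Of the 4 clusters with 9 summits, the one with the highest summed signal spanned 15065 bp between CG7320 and lncRNA:CR45935 on 3L (18210222 to 18225287). Its signals in chromosome order were 374, 260.1, 573, 526, 1983, 542, 341, 1038 and 249. The strongest stood in the middle, at rank 593 in replicate 1 and 568 in replicate 3. A pair at 18212292 and 18212493 shared a replicate 1 peak here too.

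Distal summits that stood in larger clusters had higher signals. The median signal was 460.2 among the 255 summits in clusters of 4 or more, 366 among the 276 in clusters of 2 or 3 and 272 among the 263 that stood alone. Their median ranks in replicate 1 were 3770, 4736 and 6121 in this order, and in replicate 3 they were 4334.5, 5562 and 7392.5. Both replicates gave the same order, but the list and its clusters were derived from these same replicates, so this is not separate support. No such values are given here for the other summits. Of the distal summits, 585 of 794 (73.7%, 95% exact interval 70.5 to 76.7) had another summit of any kind within 5000 bp, against 75.4% of the other summits and 75.3% of all summits, and the strongest peaks of replicate 1 and replicate 3 gave 75.5% and 72.7% for distal summits. The median distance to the next summit of any kind was 2055 bp for distal summits and 1843 bp for the others. Very close neighbours were fewer, as 57 distal summits (7.18%) had another summit within 500 bp, against 11.5% of the others, while within 1000 bp the shares were 31.5% and 31.6%.

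The genes beside distal summits were examined with 4 hand-written lists, each gap being assigned to the nearest protein-coding gene on both sides. Of the 794 distal summits, 283 (35.6%) lay beside a gene of any list, and the others beside none. Among these lists, distal summits lay densest beside signalling and developmental transcription factor genes, and were sparse beside ion channel, neuropeptide and transmitter receptor genes. The lists were chosen with earlier results of these data known, and 6 entries were taken out of the developmental list after its values were seen. The densities thus describe these lists and are no test of gene classes. Gaps beside a gene of the signalling list (ligands, receptors and regulators of Wnt, Hedgehog, Notch, BMP, EGF and related pathways) held 40 distal summits in 0.237 Mb of bases that met the rule, 169 per Mb. Gaps beside a developmental transcription factor gene held 177 in 1.56 Mb, 114 per Mb. Over all gaps the density was 39.5 per Mb. Each replicate was also taken by as many of its strongest peaks as the IDR-thresholded list holds, and these gave the same order, with 190 per Mb (replicate 1) and 156 per Mb (replicate 3) for signalling, 129 and 95.8 for developmental transcription factors, and 43.6 and 32.6 over all gaps.

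Gaps beside genes of axon guidance and cell adhesion held 62 distal summits, 55.6 per Mb, with 59.2 in replicate 1 and 52.0 in replicate 3. Gaps beside genes of ion channels, neuropeptides and neurotransmitter receptors held 4, 9.99 per Mb, with 12.5 in replicate 1 and 4.99 in replicate 3. Counted by gene, 14 of 28 signalling genes that flank a gap with bases under the rule had a distal summit beside them, 54 of 106 developmental transcription factors (50.9%), 23 of 64 genes of axon guidance and adhesion (35.9%) and 5 of 42 genes of channels and receptors (11.9%). The count over all flanking protein-coding genes was 542 of 2066 (26.2%). Median gap lengths were 12249, 13614, 13276 and 10114 bp in the order of these lists and 13182 bp over all gaps. The repeat-masked share of the bases was 22.4%, 18.7%, 18.4% and 21.9% in this order, against 31.4% over all gaps, and its part in the densities was not tested. Distance to a start was not matched between the lists either, and its part was not tested. The signalling list had 0.237 Mb of bases under the rule in 36 gaps, against 20.1 Mb in 1422 gaps over all. Over all gaps the density was 67.4 per Mb between 5001 and 10000 bp from a start and 17.6 between 20001 and 50000 bp. It was 0 beyond 50000 bp. Summits of 1 gap share their flanking genes and are not independent, and the lists are not a random choice of genes.

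**Figure D2:**
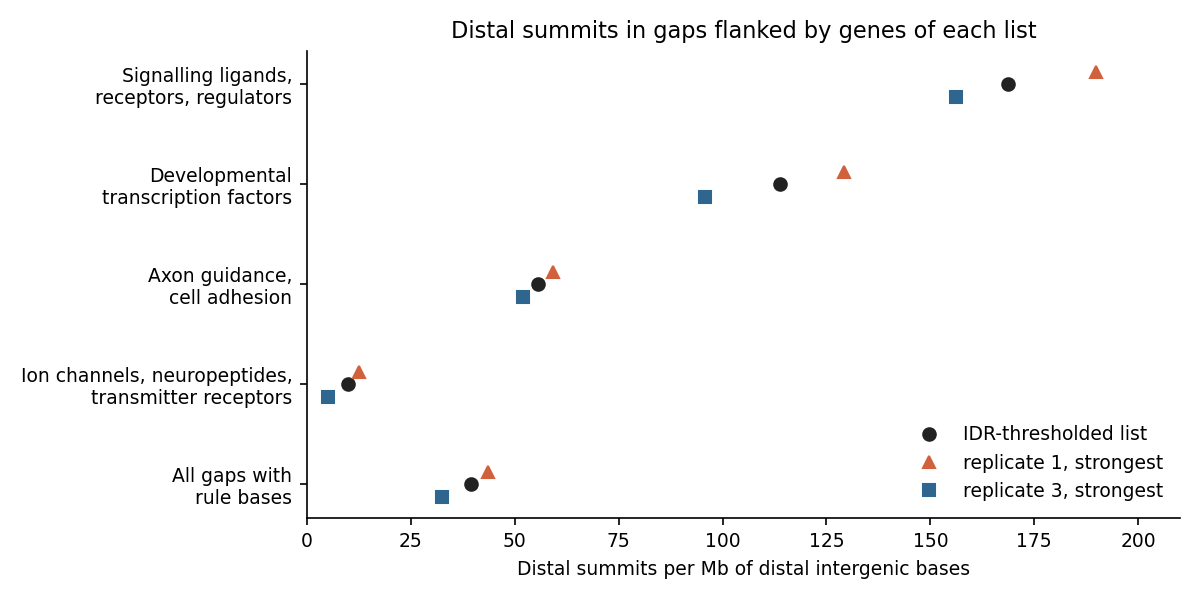
Distal summits per Mb of bases that meet the distance rule, in gaps beside genes of each list (upper 4 rows) and in all gaps (bottom row). The lists were chosen with earlier results of these data known. Circles are the IDR-thresholded list, triangles the strongest peaks of replicate 1 and squares those of replicate 3; signalling genes (156 to 190 per Mb) and developmental transcription factors (95.8 to 129 per Mb) lie above all gaps (32.6 to 43.6 per Mb) in each list, and channels and receptors (4.99 to 12.5 per Mb) below.

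Among developmental transcription factors the strongest distal peak stood beside Eip93F, with 12 summits in its gap. It was followed by the Hox gene Antp, with 3 summits and a highest signal of 1584 (3R, summit 7024736), vvl, with 10 in the gap named above, and tll, which encodes an orphan nuclear receptor, with 3 summits at signals of 1339, 993 and 426 between 8341 and 9886 bp upstream of its start. Among signalling genes, Wnt6 and Wnt10 shared the peak named above. The Hedgehog receptor gene ptc had 2 distal summits on 2R, with signals of 2237 (8639509) and 1839 (8644388), the second of them 5261 bp upstream of its start. The ligand gene hh had 4 on 3R, between 5889 and 7529 bp upstream of its start, with signals of 1924, 1165, 342 and 279. The best ranks in the replicates were 585 and 643 at hh, and 374 and 582 at ptc. Whether genes of the Hedgehog pathway stand out among the listed genes was not tested.

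Among genes of axon guidance and adhesion, Tollo, which encodes a Toll family receptor, had 8 distal summits on its right side with a highest signal of 2427 (3L, 15260752) and 14 on both sides. The gene of the Ryk family receptor drl had 9, with a highest signal of 2289 (2L, 19226536), its paralogue dnt had 2, with a highest of 1028, and the Toll family gene 18w had 5, with a highest of 952. The channel and receptor list was led by a single peak of signal 547 between the acetylcholine receptor subunit genes nAChRalpha2 and nAChRbeta2, by one of 455 beside the dopamine receptor gene Dop1R2 and by one of 233 beside the glutamate receptor gene GluRIB. Their ranks in replicate 1 were 3556, 4280 and 6506.

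Noncoding RNA genes were more common at the edges of gaps with distal summits. Of the 668 sides of such gaps, 32.9% ended at a noncoding RNA gene and 65.1% at a protein-coding gene, against 20.2% and 75.5% of the 2176 sides of gaps without. Both flanking genes had their starts facing the gap in 21.6% of gaps with distal summits, against 15.4% of gaps without, and both had their ends facing it in 30.5%, against 37.7%. Gaps with distal summits were longer (median 18982 against 11636 bp). Gap length was not matched for edges or orientation, and its part was not tested. The nearest start lay downstream of the summit on the gene's own strand, so that the summit was upstream of the gene, in 49.4% of cases (95% exact interval 45.8 to 52.9), against 54.4% of windows of the same length tiled end to end over all bases that met the rule. The strongest peaks of the replicates gave 50.2% and 49.9%.

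Summits thinned out with distance from a start. Per Mb of intergenic bases there were 224 summits within 1000 bp of a start and 76.4 between 1001 and 5000 bp. Inside the distal range there were 67.4 between 5001 and 10000 bp (483 summits), 49.4 between 10001 and 20000 bp (247 summits) and 17.6 between 20001 and 50000 bp (64 summits). Beyond 50000 bp no summit was found in 4.30 Mb. The replicates gave 73.4, 55.8 and 19.8 per Mb (replicate 1) and 55.0, 41.0 and 15.4 per Mb (replicate 3) in the 3 bins that held distal summits. The repeat-masked share of the bases grew over the same 4 distal bins, 23.5%, 26.8%, 36.5% and 45.7%. Counted over unmasked bases and summits alone, the first 3 held 65.3, 49.5 and 19.5 per Mb. The median distance to a start among distal summits was 8712.5 bp, with quartiles of 6681.5 and 12503 bp. Even distribution over the bases would have given 15.01% distal summits, so the observed share was 0.548 of it, with 0.605 in replicate 1 and 0.452 in replicate 3.

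**Figure D3:**
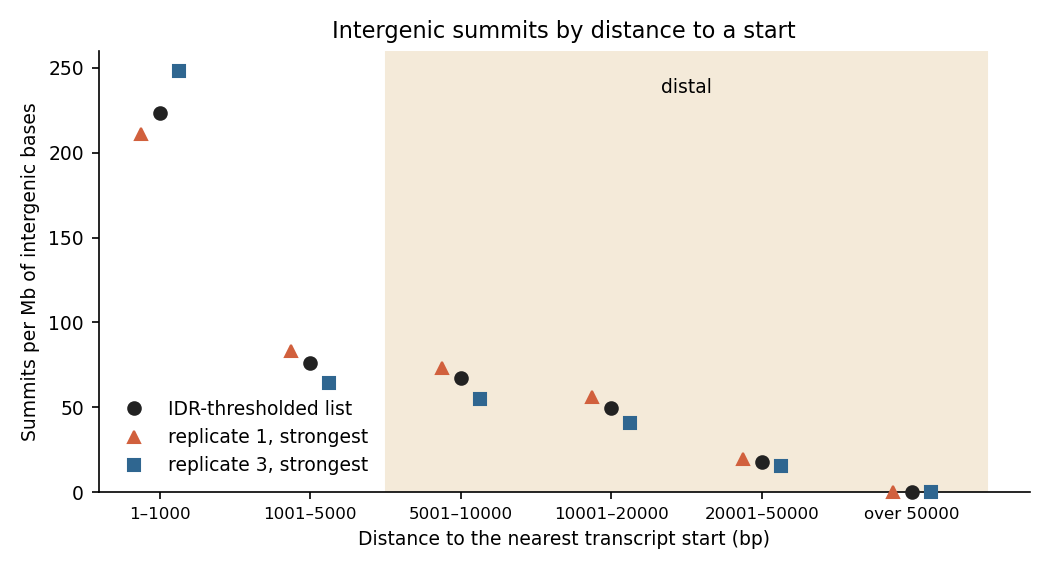
Intergenic summits per Mb of intergenic bases, by distance to the nearest transcript start in bp; the shaded bins are those of distal summits. Circles are the IDR-thresholded list, triangles the strongest peaks of replicate 1 and squares those of replicate 3, and in each list the values decrease from bin to bin, down to 0 beyond 50000 bp.

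The replicates differed in how many distal summits they held. The strongest peaks, as many as in the IDR-thresholded list, included 877 distal summits in replicate 1 (9.08%, 95% exact interval 8.52 to 9.67) and 655 in replicate 3 (6.78%, 6.29 to 7.30), a mean of 7.93% ± 1.63 (SD, n = 2). Among the 20343 pooled peaks weaker than the IDR-thresholded ones the share was 11.3%. The chromosome arms differed more than the replicates did. On 3L 12.1% of summits were distal (268 of 2206, 10.8 to 13.6), on 2L 9.22% (165 of 1790), on 3R 7.96% (173 of 2174), on 2R 7.15% (116 of 1622) and on X 3.88% (72 of 1854, 3.05 to 4.87). Chromosome 4 had none among 11 summits, which allows a share of up to 27.3% by a limit of 3 counts (the 95% exact interval reaches 28.5%). Per Mb of bases that met the rule, X held 24.6 and 2R 25.3 distal summits, against 45.8 on 3R, 48.0 on 3L and 52.9 on 2L. In replicate 1 the 5 values in the same order were 28.7, 27.3, 50.8, 52.0 and 59.7, and in replicate 3 they were 21.9, 19.4, 38.4, 41.6 and 40.1, so X and 2R stayed under the other 3 arms in both. X had the lowest median signal among distal summits, 293, and 3L the highest, 386.

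Peaks far from starts, between genes and in genes alike, had lower median signals in the IDR-thresholded list than peaks near starts and were rarer at its top. The median signal of distal peaks was 354 (quartiles 232 and 662, range 170.2 to 8172), against 388 for the other peaks (quartiles 245 and 754), a ratio of 0.912. By class of the others, the median was 358 in genes far from starts, 402 for intergenic summits near a start and 391 in genes near a start. In the strongest peaks of each replicate the ratio was 0.852 in replicate 1 and 1.00 in replicate 3, so the lower median was seen in replicate 1 and not in replicate 3. Of the 966 strongest peaks of the list 47 were distal, 4.87% (95% exact interval 3.60 to 6.42), while the 9 later blocks of this size held 7.45% to 10.5%. The 965 strongest peaks held 5.92% of all distal peaks, 6.74% of those in genes far from starts, 10.8% of intergenic peaks near a start and 11.5% of peaks in genes near a start. The first block was the lowest of the 10 in distal share in replicate 1 (5.07%) and in replicate 3 (4.45%) as well.

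The IDR-thresholded list was derived from both replicates. The presence of its distal peaks in both replicates is therefore in part a matter of that derivation. The matched shares of distal peaks were close to those of all peaks in the list. An overlapping peak was found in both replicate lists of 30000 peaks for 770 of 794 distal peaks, 97.0% (95% exact interval 95.5 to 98.1), against 94.8% of all IDR-thresholded peaks. Only 2 had no replicate 1 peak and 22 no replicate 3 peak, and none lacked both. The 22 had a median signal of 253 and a highest of 661. Both matches ranked among the strongest of their lists, to the same number as the IDR-thresholded list holds, for 611 distal peaks, 77.0% (73.9 to 79.8), and for 77.0% of all IDR-thresholded peaks.

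Distal peaks ranked higher in replicate 1 than in replicate 3. Their median rank was 5026.5 in replicate 1 and 5658 in replicate 3, against 4637.5 and 4815 for the other peaks. Of the 770 matched in both, 568 had the better rank in replicate 1, 73.8% (95% exact interval 70.5 to 76.8), against 58.8% of the other matched peaks. The share was 69.1% for summits in genes far from starts, 58.9% for intergenic summits near a start and 54.5% for summits in genes near a start. Every class thus leaned to replicate 1, and the summits far from starts, whether in a gene or between genes, leaned to it most. The Spearman correlation of the signals of the 2 replicates was 0.885 over the 770 peaks and 0.849 over the others, given as a description since both lists share a control.

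**Figure D4:**
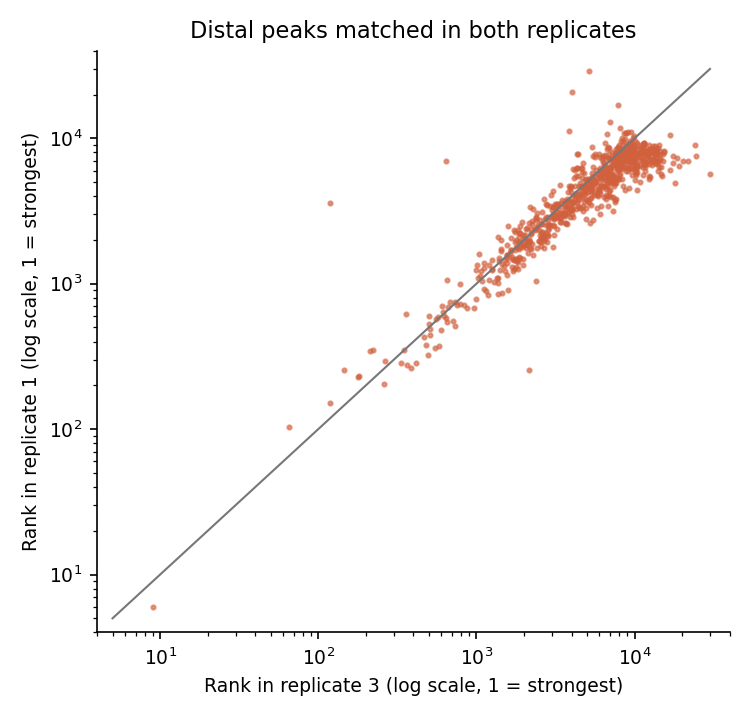
Rank of each of the 770 distal peaks matched in both replicates, in replicate 3 (horizontal, log scale) and in replicate 1 (vertical, log scale), with 1 the strongest; each point is 1 peak and the line marks equal ranks. Most points (568) lie under the line, where the rank in replicate 1 is better, and the medians are rank 5026.5 in replicate 1 and 5658 in replicate 3 among all distal peaks with a match.

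The distal peaks whose ranks differed most came in part from the matching. A summit at 30265041 on 3R (signal 249, ranks 3587 in replicate 1 and 118 in replicate 3) shared its replicate 3 peak with the strong summit at 30265629, and one beside hh at 23149435 (ranks 6939 and 643) shared its own with the strongest summit there. The summit at 21941750 beside Eip93F (ranks 256 and 2152) shared its replicate 1 peak. Of the 3 without a shared match, 1 was in the NijA gap at 10711687 (signal 301, ranks 29147 in replicate 1 and 5131 in replicate 3). The others ranked higher in replicate 1, at 28117079 on 3R between trv and lncRNA:CR46077 (signal 302, ranks 4899 and 18049) and at 20190994 on 2R between lncRNA:CR45229 and CG16894 (signal 228, ranks 5702 and 29975).

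The sequence at distal summits was poor in G and C. The median GC content of the windows, 50 bp to each side of the summit, was 27.7% (quartiles 24.8 and 32.7), against 29.7% at the other summits and 41.6% in windows tiled over all bases that met the rule. A GC content under 35% was found in 84.3% of distal windows, 71.1% of the others and 28.2% of tiled windows. A run of 10 or more A or T bases, as capitalised above, stood in 522 of the distal windows, 65.7% (95% exact interval 62.3 to 69.0), with 65.4% in replicate 1 and 64.7% in replicate 3, against 58.5% of the other windows and 33.2% of tiled windows. Among the others, the share was 64.5% for intergenic summits near a start, within the interval of distal windows, 60.6% in genes far from starts and 54.1% in genes near a start, with median GC contents of 28.7%, 29.7% and 31.7%. The median GC content was 26.7% among the 199 distal peaks of highest signal and 28.7% among the 199 of lowest. The summit base was repeat-masked in 26.4% of distal summits (210 summits), 25.3% of the others and 31.6% of tiled windows, and 2 distal summits lay inside an annotated transposable element.

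The low GC content was narrow and had GC-rich shoulders. In bins of 50 bp the mean GC content of distal sites was 28.7% and 29.2% on the left and right of the summit, rose to 48.1% between 350 and 300 bp on the left and to 48.6% between 250 and 300 bp on the right, and was 41.1% between 1000 and 950 bp on the left, close to the 40.9% of tiled windows there. The lowest bin was 28.9% in the strongest peaks of replicate 1 and 29.5% in those of replicate 3, and the highest was 48.5% and 48.6%. The highest bin of the other classes was 47.1% in genes far from starts, 45.9% for intergenic summits near a start and 45.1% in genes near a start, so distal sites had the highest shoulders of the 4 classes. They also had the lowest value at the summit, since the lowest bin of the others was 30.5%, 30.2% and 33.3% in the same order. Intergenic summits near a start began from a higher level, 43.1% between 1000 and 950 bp on the left. The dip was 27.5% among the 50% of distal peaks with the stronger signal and 29.9% among the rest.

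**Figure D5:**
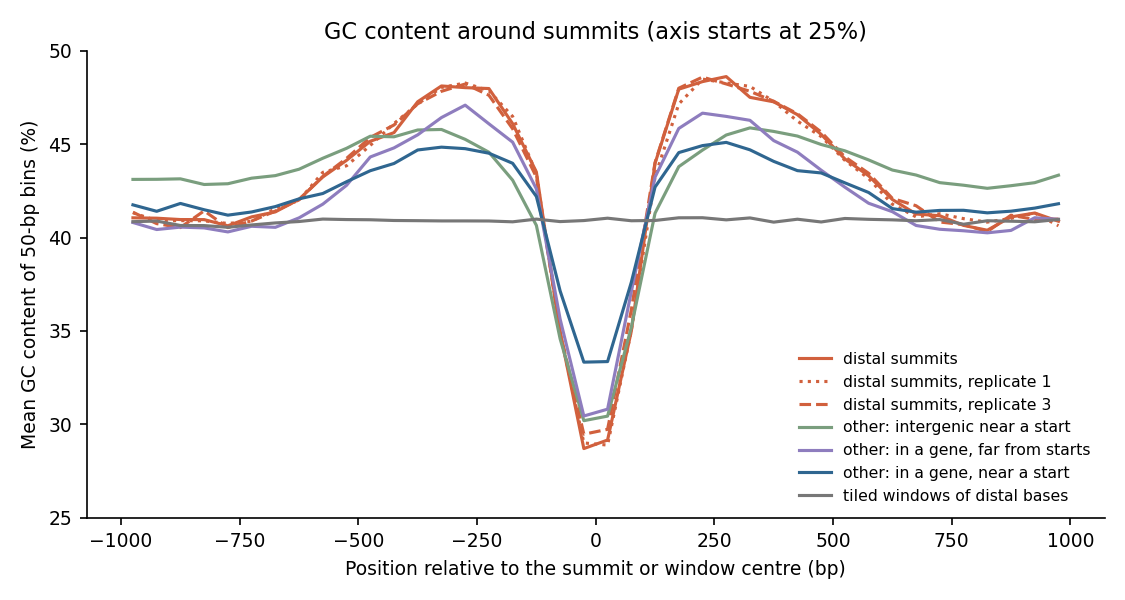
Mean GC content in 50-bp bins (vertical axis, percent, starting at 25) by position in bp relative to the summit. Distal summits (solid, and dotted and dashed for the replicates) fall to about 29% at the summit and rise above 48% at the shoulders, the other classes of summit have a shallower dip and lower shoulders, and tiled windows of distal bases stay at 41%.

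The share of windows with a motif depends in part on their base composition, for which no correction was made. Of 26 motifs searched on both strands of these windows, 7 are given here, with further forms of the E-box. TATAAA stood in 28.0% of distal windows (95% exact interval 24.9 to 31.2), 25.2% of the other summits and 12.2% of tiled windows. The homeodomain core TAATTA stood in 10.8%, 10.9% and 6.88% in this order. GAGAG, the motif of GAGA factor, stood in 5.92% of distal windows (4.38 to 7.79), 9.65% of the others and 11.5% of tiled windows. The E-box CANNTG, bound by bHLH factors, stood in 27.8%, 32.0% and 36.0%. Its forms differed, as CAGCTG stood in 1.13%, 2.20% and 3.21% and CACGTG in 0.378%, 0.451% and 1.00%, but CATATG in 4.79%, 4.07% and 2.69%. CACACACA was found in 0.252% of distal windows (0.0305 to 0.907), 1.42% of the others and 1.79% of tiled windows. TGANTCA was found in 1.26%, 2.82% and 1.66%. This pattern takes any middle base, so it includes the AP-1 site but is looser than it. The share with TGANTCA rests on the distance limit, as it was 2.56% beyond 2000 bp and 1.93% beyond 10000 bp. AGGTCA, to which nuclear receptors bind, was in 2.90% of distal windows (1.84 to 4.31), 1.75% of the others and 2.71% of tiled windows. For the 7 motifs, without the E-box forms, the replicates gave 27.1% and 28.2%, 11.5% and 10.7%, 5.82% and 7.48%, 27.7% and 29.3%, 0.114% and 0.458%, 1.60% and 1.98%, and 2.51% and 2.90% of distal windows (replicate 1 and replicate 3). A match says only that the letters are present.

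Words of 6 bases were ranked by their excess in distal windows over tiled windows of the arms 2L and 3L and of X, and the leading 10 were counted on 2R, 3R and 4. All held A or T at 4 or more of their 6 positions, and for 9 of the 10 the distal share on the second set of arms was more than 2 times the tiled share. ATATAT stood in 20.4% of the 289 distal windows there (95% exact interval 15.9 to 25.5), 16.6% of the other summits and 6.12% of tiled windows. ATACTA stood in 13.8% (10.1 to 18.4), 7.28% and 3.97%, and TAACTA in 10.7% (7.41 to 14.9), 8.90% and 3.89%. The word that led the ranking, ACTAGT, stood in 1.73% (0.564 to 3.99), 2.19% and 1.18%.

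Near the distance limit both strong and weak sites were found on each side. The 3 distal summits nearest to it lay 5005, 5017 and 5030 bp from a start. They were a peak of signal 1761 on 3L (14374712) between CG13481 and CG43120, one of 180.2 on 2L (16456077) between Idgf3 and dac, and one of 176 on 3L (10830174) beside tna. The 3 intergenic summits just outside the rule lay 4991, 4977 and 4964 bp from a start, beside Tollo, CG17104 and cv-c, with signals of 1359, 221 and 251. At the far end, the most remote summit lay 43212 bp from a start on 2L (20204827), inside an annotated transposable element, with a signal of 365 and ranks 4952 and 5483. Next were a peak 39310 bp from a start on 3R (15596158, signal 757, between AOX4 and CG43335), one 39023 bp away beside GluRIB that had no replicate 3 match (signal 233), and a pair 37736 and 37597 bp away between the paralogous transcription factor genes bab1 and bab2 (signals 301 and 267). The 3 weakest distal peaks had signals of 170.9, 170.3 and 170.2 and ranked 12397, 11277 and 15372 in replicate 3.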

How the data were processed

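Anti-GFP ChIP-seq peaks of 2 replicates of whole pupae were used. Per the labels and the deposited notes, peaks were called on dm6 for replicate 1, replicate 3 and the pooled reads against the same control, and an IDR-thresholded list was derived. The aligner, peak caller and IDR cut-off were not given in the sources used here. The signal of each peak (column 7) is the authors' value relative to the control and can be compared within 1 list only. The deposited −log10 q-value held a single value over the IDR-thresholded list, so peaks were ranked by signal. Each replicate was also used through its strongest peaks, as many as the IDR-thresholded list holds.

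Genes and starts came from Ensembl release 115, without its transposable element entries (5809 on the 6 arms), and the sequence, with its repeat masking, from the RefSeq assembly of Release 6. A replicate match was an overlapping peak (1 bp or more) with the closest summit. Shares have exact (Clopper-Pearson) 95% intervals and no p-value was computed, as there is 1 group and peaks of a library are not replicates. The labels call the replicates biological. The classifying, matching and motif steps were tested on simulated data. Numbers were computed with Python 3.11.15, numpy 2.4.6, pandas 2.3.3 and scipy 1.17.1.

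The members, motifs and gene lists were chosen with earlier results of these data known, and 6 entries that encode no transcription factor were left out of the developmental list after its values were seen (as first written, 57 of its 109 flanking genes had a distal summit beside them, 122 per Mb). Regions were named by a rule: the 12 strongest, the 5 farthest from a start, the 2 largest clusters, the 3 in each direction whose ranks differed most, the 3 on each side of the distance limit, the 3 weakest, the 6 fullest gaps and up to 4 genes of each list.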

Additional observations from a re-analysis of the deposited data

How the results depend on the processing

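With a distance limit of 2000 bp in place of 5000 bp, 14.96% of summits were distal, 0.689 of the share of bases, and 627 gaps held one; with 10000 bp the values were 3.22%, 0.333 and 133 gaps. With protein-coding genes alone as genes the share was 13.9% and the ratio 0.717, and with transposable elements counted as genes, which was tried only after the data had been seen, it was 0.683. It was under 1 in every alternative run. The median signal was 326 beyond 10000 bp, 728 among the stronger 50% of peaks and 166 to 196 in the replicate lists, which have scales of their own. The median GC content was 28.7% beyond 2000 bp, with protein-coding genes alone and in both replicate lists, 1 base in the window more than 27.7%, and 31.8% in windows of 100 bp to each side (chosen after seeing the data). The share with a neighbour was 69.8% beyond 10000 bp, 77.3% with protein-coding genes alone, 68.0% among the stronger 50% of peaks, 49.1% within 2000 bp and 87.2% within 10000 bp. Median ranks were 5358.5 in replicate 1 beyond 10000 bp, and 2517 in replicate 1 and 2640 in replicate 3 among the stronger 50%, where 99.2% were matched in both and 182 gaps held a distal summit. Matching by an overlap of 50% of both peaks gave 74.1%, by summits within 100 bp 95.0% and against the strongest replicate peaks alone 78.5%. Of 56 alternative motif shares 31 moved by more than the spread between replicates. Windows of 100 bp to each side gave higher shares for all 7 motifs, such as 44.2% for TATAAA and 3.40% for TGANTCA. These 7 are among the 31. A wider window contains the narrower one, so its share cannot be lower and the rise tells nothing about the sites. In the other alternatives AGGTCA lay between 2.21% and 4.18%, GAGAG between 4.68% and 7.48%, CACACACA between 0% and 0.551%, and TGANTCA between 1.10% and 2.56%, with 2.01% for protein-coding genes alone. No paired analysis was possible because there is 1 group. The unknown depth limits what the absence of a peak can mean.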
